A study of Mus musculus with 2 samples.

Results

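The cell cycle and proliferation genes described here were 44 genes that act from entry into the cycle to cell division, and they were listed by name, with no measured value in the rule. All 44 had an entry among the 23950 gene symbols measured, each with a single entry. By phase they comprised 11 genes of G1 and of the step from G1 into S, 13 genes of S phase, and 20 genes of G2 and mitosis (G2/M). RNA-seq was done on whole optic nerve of mice of mixed strain at postnatal day 12. The Hdac3 cKO group was 1 library of Hdac3f/f; Olig1-cre animals, and the control group was 1 library of Hdac3f/+; Olig1-cre animals. Both groups therefore carried Olig1-cre, a recombinase expressed from Olig1, a gene of the oligodendrocyte lineage, and the control carried 1 Hdac3 allele that Cre can delete. Deletion is limited to cells with Cre activity and their progeny, while the RNA came from every cell type of the nerve. The labels do not state how many animals each library holds.

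The cell cycle is driven by kinases (CDKs) that are active only when bound to a cyclin. D-type cyclins with CDK4 and CDK6, and then cyclin E with CDK2, phosphorylate the retinoblastoma protein, which releases E2F factors to switch on genes of DNA replication. Genes of G2 and mitosis are transcribed later, through CCAAT boxes bound by NF-Y and a downstream element named CHR, so their RNA is found mainly in dividing cells, while D-type cyclins respond to growth signals and can also be present in cells that do not divide. In the optic nerve of this age, oligodendrocyte precursors are a main dividing population, and astrocytes, microglia, vascular cells and meningeal cells can divide too.

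Promoters are shown here because the phases differ in which of these elements they hold, a feature that did not enter the choice of the 44 genes. RefSeq windows (build GRCm38.p6, another build than that of the expression files) were found for 36 of the 44 genes. In the 250 bases before the start site, both strands were searched for 3 kinds of letters. The box of NF-Y was CCAAT. The CHR element was spelled TTTGAA, with TTTAAA as its other accepted form. An E2F match was any of 4 spellings, of which the first is TTCCCGC. The second spelling of an E2F match was TTGGCGC. A further spelling accepted as an E2F match was TTCGCGC, and the last spelling accepted as such was TTGCCGC. The reverse of TTGGCGC shares letters with CCAAT, so a match of both can overlap. A CCAAT box was present for 15 of 17 G2/M genes, 9 of 12 S phase genes and 3 of 7 G1 genes, against 37.5% of all 27025 genes with a window. CHR letters were present for 11 of 17 G2/M genes, 3 of 12 S phase genes and 2 of 7 G1 genes, against 28.1% of all genes. E2F letters were present for 3 of 17 G2/M genes, 6 of 12 S phase genes and 1 of 7 G1 genes, against 9.01% of all genes. A gene with several start sites was counted once if any of its windows held the letters. A match is a description of the letters and was not measured as a bound site. The 160 bases before the start are printed 5′ to 3′ on the gene's strand for 7 example genes, with matches in capitals. They are Ccnd3 (largest difference of all 44 genes, 2 start sites), Cdk4 and Pcna (highest mean levels of their phases over both libraries), Mcm6 (a replicative helicase subunit with paired E2F letters), Mki67 and Ccnb2 (the lowest and the highest difference of the G2/M genes) and Cdk1 (the mitotic kinase).
Ccnd3 start site 1 (chr17:47504891-47505050, + strand): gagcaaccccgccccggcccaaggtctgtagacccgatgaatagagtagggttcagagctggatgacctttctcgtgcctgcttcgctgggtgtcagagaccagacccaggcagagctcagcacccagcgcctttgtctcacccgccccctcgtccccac
Ccnd3 start site 2 (chr17:47593307-47593466, + strand): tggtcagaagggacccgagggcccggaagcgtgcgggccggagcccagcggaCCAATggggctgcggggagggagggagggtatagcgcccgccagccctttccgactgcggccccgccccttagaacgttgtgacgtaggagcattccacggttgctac
Cdk4 (chr10:127063375-127063534, + strand): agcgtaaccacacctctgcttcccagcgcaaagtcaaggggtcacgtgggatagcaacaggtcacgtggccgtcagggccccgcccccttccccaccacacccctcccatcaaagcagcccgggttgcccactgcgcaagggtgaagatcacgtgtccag
Pcna (chr2:132253181-132253340, - strand): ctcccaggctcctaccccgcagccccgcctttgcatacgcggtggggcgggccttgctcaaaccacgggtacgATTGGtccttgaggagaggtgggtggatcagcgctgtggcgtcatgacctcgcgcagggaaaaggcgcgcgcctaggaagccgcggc
Mcm6 (chr1:128359706-128359865, - strand): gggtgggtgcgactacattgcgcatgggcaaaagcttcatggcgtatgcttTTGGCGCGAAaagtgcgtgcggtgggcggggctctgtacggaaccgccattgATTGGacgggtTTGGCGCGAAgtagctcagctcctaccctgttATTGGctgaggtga
Mki67 (chr7:135716380-135716539, - strand): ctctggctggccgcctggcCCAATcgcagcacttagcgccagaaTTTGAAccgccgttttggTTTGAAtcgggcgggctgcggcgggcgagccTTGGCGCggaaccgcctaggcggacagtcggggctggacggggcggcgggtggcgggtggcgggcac
Ccnb2 (chr9:70421555-70421714, - strand): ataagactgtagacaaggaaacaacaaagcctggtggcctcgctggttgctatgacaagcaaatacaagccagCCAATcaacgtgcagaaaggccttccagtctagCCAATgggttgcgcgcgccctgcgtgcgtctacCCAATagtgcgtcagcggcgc
Cdk1 (chr10:69352913-69353072, - strand): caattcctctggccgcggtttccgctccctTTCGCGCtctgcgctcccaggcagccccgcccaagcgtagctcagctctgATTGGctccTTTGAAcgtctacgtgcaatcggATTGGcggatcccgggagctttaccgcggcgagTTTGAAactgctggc
The printed Mcm6 stretch holds 4 E2F matches, as overlapping pairs on opposite strands, and 2 CCAAT boxes. In the printed stretches, Ccnb2 holds 3 CCAAT boxes, Cdk1 holds 2 with 2 CHR and 1 E2F match, and Mki67 holds 1 with 2 CHR and 1 E2F match. Ccnb2 also counts among the genes with CHR letters, which begin before its printed stretch, within the 250 bases searched. No match lies in the printed stretch of Cdk4, or in that of the first Ccnd3 start site.

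Values are FPKM, fragments scaled to transcript length and to sequenced fragments, with the interval that the authors deposited beside each. Read depth is unknown, and no group has a replicate, so no test was possible and each difference describes these libraries. Hdac3 itself was at 38.0 FPKM in the cKO library and 36.4 FPKM in the control library, so gene-level RNA does not check the genotype labels, and "cKO library" below means the library with that label. A difference is log2((cKO FPKM + 1)/(control FPKM + 1)). Genes with at least 1 FPKM in at least 1 library and a usable estimate in both were compared, 14154 in all, and their median difference was 0.12. That median is -0.17 when the libraries are scaled to the same sum, and 0.04 when small RNA symbols are left out of that sum. A gene was counted as higher or lower at 2-fold or at 1.5-fold when the difference reached that fold and the deposited intervals did not overlap. The half-width of the interval, as a percent of its midpoint, had a median of 6.59% over the compared members in the cKO library and 10.6% in the control library. The intervals are imperfect, since 33.0% of genes in the cKO library and 15.9% in the control library have an FPKM outside their own interval. Among the 42 members compared this held for 9 in the cKO library and 5 in the control library.

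With the deposited FPKM, most of the 44 genes had similar levels in both libraries, and the D-type cyclins stood out as higher in the cKO library. After scaling to the same sum no D-type cyclin reached 1.5-fold, and Cdk4, Mki67, Rrm2 and Birc5 were lower at 1.5-fold instead. In that setting 16.6% of all genes were lower and 7.35% were higher at 1.5-fold. The member calls of that setting depended on small RNA symbols. With such symbols left out of the sum, 0 members were lower at 1.5-fold (against 10.3% of all genes) and Ccnd3 was higher (against 13.2%). Of the 42 members with at least 1 FPKM, 0 were lower and 0 were higher at 2-fold, where 4.51% of all genes were lower and 4.73% were higher. At 1.5-fold, 0 members were lower and 3 were higher, against 8.85% and 16.0% of all genes, and the 3 were Ccnd1, Ccnd2 and Ccnd3. The 1.5-fold mark was chosen with earlier results of these data known. The share higher at 1.5-fold, 7.14% of members, is thus below that of all genes. With the deposited FPKM the members lay close to 0, with 29 of 42 within 0.25 on the log2 scale (69.0%, against 42.3% of all genes). This contrast depends on the scaling, since the band is set around 0. After scaling to the same sum the S phase median (-0.33) and the G2/M median (-0.40) were outside it. Intervals were separate for 10 members that were lower (23.8%, against 22.5% of all genes) and for 5 that were higher (11.9%, against 38.4%). The median difference was -0.11 over all 42, 0.14 for the 10 G1 genes, -0.02 for the 12 S phase genes and -0.12 for the 20 G2/M genes. The G1 median was -0.07 after scaling to the same sum, while the G2/M median stayed below 0 in each setting tried. In whole nerve, fewer cells of a type and less RNA per cell cannot be told apart. Cdk6 and Cdc6 stayed below 1 FPKM in both libraries and are described by their levels only.

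**Figure D1:**
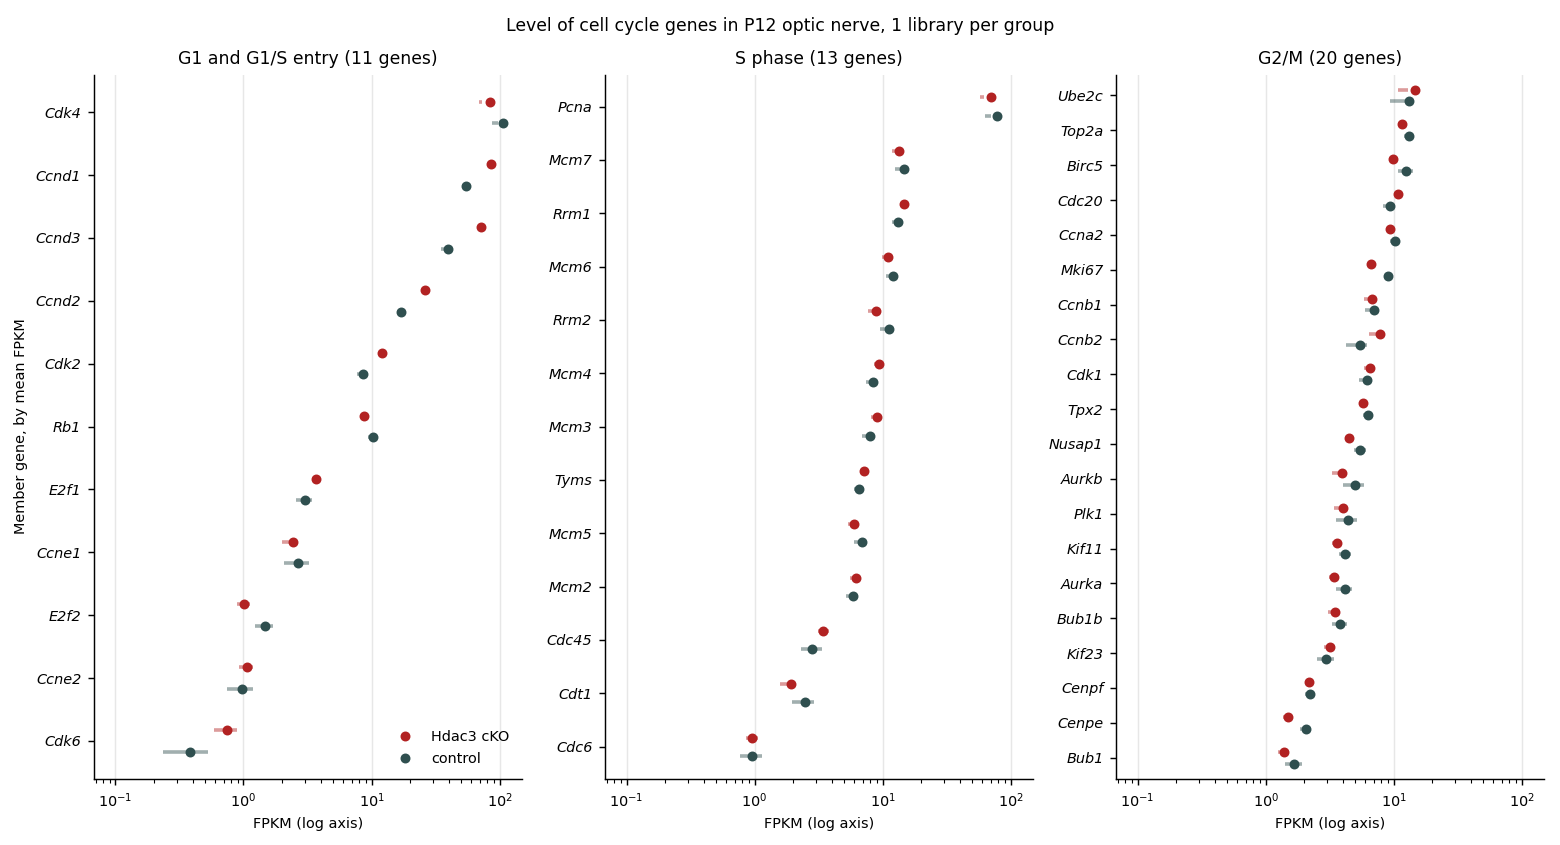
FPKM (log axis) of all 44 genes in the Hdac3 cKO library (red, upper point of each pair) and the control library (dark, lower point), by phase and ordered by mean level; bars are the deposited intervals. The red points of Ccnd1, Ccnd2 and Ccnd3 lie right of the dark ones, while S phase and G2/M pairs nearly coincide.

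All 3 D-type cyclins, the partners of CDK4 and CDK6 that start the phosphorylation of the retinoblastoma protein, were higher in the cKO library. Ccnd3 (chromosome 17, 47642000 to 47736637, mm9) was at 71.7 FPKM (interval 70.7 to 74.3) in the cKO library and 39.6 FPKM (34.9 to 39.5) in the control library, a ratio of 1.81 and a log2 difference of 0.84. Ccnd1 (chromosome 7, 152115836 to 152125830) was at 86.1 FPKM (80.7 to 83.4) in the cKO library and 54.6 FPKM (50.5 to 54.5) in the control library, a ratio of 1.58 and a log2 difference of 0.65. Ccnd2 (chromosome 6, 127075727 to 127101066) was at 26.2 FPKM (24.9 to 26.1) in the cKO library and 17.0 FPKM (15.9 to 17.6) in the control library, a ratio of 1.54 and a log2 difference of 0.60. The intervals were separate for each of the 3 cyclins, although the FPKM of each lies above its own interval in at least 1 library. Ccnd2 passed the 1.5-fold mark by a small margin, and the count of 3 depends on the scaling and the pseudocount. The cyclins kept nearly the same proportions among themselves. Ccnd1 made up 46.8% of the summed D-type cyclin FPKM in the cKO library and 49.1% in the control library, Ccnd3 39.0% and 35.6%, and Ccnd2 14.2% and 15.3%. Part of the Ccnd2 locus overlaps the entry 9330179D12Rik, at 1.77 FPKM in the cKO library and 1.04 FPKM in the control library, and part of Ccnd3 overlaps Bysl, at 12.5 and 10.2 FPKM.

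Of the kinases that bind G1 cyclins, Cdk4 was lower in value in the cKO library, and Cdk6 and Cdk2 were higher in value. Cdk4, the kinase of D-type cyclins and the G1 gene with the highest mean level over both libraries, was at 83.5 FPKM (69.6 to 73.6) in the cKO library and 106 FPKM (87.3 to 96.6) in the control library. Its log2 difference was -0.34, with separate intervals, below the 1.5-fold mark, and both values lie above their intervals. Cdk6, its relative, was at 0.742 FPKM (0.588 to 0.889) in the cKO library and 0.384 FPKM (0.235 to 0.528) in the control library, a ratio of 1.93 with separate intervals at levels below 1 FPKM. Cdk4 was the far more abundant RNA of these kinases in both libraries. Cdk2, the partner of cyclins E and A, was at 12.2 FPKM (11.6 to 12.8) in the cKO library and 8.54 FPKM (7.73 to 9.37) in the control library, a log2 difference of 0.46. Its intervals were separate, and the difference was short of 1.5-fold.

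The remaining genes of the G1/S switch were at low levels. Rb1, the retinoblastoma protein itself, was at 8.77 FPKM (8.15 to 9.01) in the cKO library and 10.2 FPKM (9.33 to 10.8) in the control library, a log2 difference of -0.20. Lpar6, a receptor gene within an intron of Rb1, was at 5.62 and 5.77 FPKM. The entry Mir687, which overlaps Rb1 by 89 bases, was at 0 FPKM in the cKO library and 34.3 FPKM in the control library. E2f1, an activating E2F, was at 3.69 FPKM (3.40 to 3.99) in the cKO library and 3.01 FPKM (2.57 to 3.45) in the control library, and these intervals overlap. Its log2 difference was 0.23, and -0.03 after scaling to the same sum. E2f2, its close relative, was at 1.02 FPKM (0.893 to 1.13) in the cKO library and 1.47 FPKM (1.23 to 1.70) in the control library, a log2 difference of -0.29 with separate intervals. The cyclins E showed overlapping intervals. Ccne1 was at 2.44 FPKM in the cKO library and 2.67 FPKM in the control library, and Ccne2 at 1.06 and 0.973 FPKM. Ccne2 shares 5622 bases of its locus with Ints8, at 8.05 FPKM in the cKO library and 8.64 FPKM in the control library. The counting is not stated to use strand, so reads of such overlaps cannot be assigned. Without the D-type cyclins, the median of the G1 genes was -0.09 over 7 genes.

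The S phase genes differed little with the deposited FPKM, where their 12 differences ran from -0.30 to 0.22, with 6 above 0 and 6 below, where 38.6% of all genes were below 0. Of the 12, 8 lay below the median of all genes. After scaling to the same sum every one of them was below 0, from -0.61 for Rrm2 to -0.04 for Cdc45. Without small RNA symbols in that sum the median of the 12 was -0.11, and Cdc45 was at 0.15. Pcna, the sliding clamp of DNA polymerase, was at 69.8 FPKM (57.3 to 61.6) in the cKO library and 78.0 FPKM (63.1 to 70.3) in the control library, a log2 difference of -0.16. Both values lie above their own intervals, and the intervals were separate. Pcna exceeded every other S phase gene, the next being Mcm7, at 13.4 FPKM in the cKO library and 14.6 FPKM in the control library, or Rrm1, at 14.6 and 13.1 FPKM. The Mcm7 locus overlaps the entries Mir25, Mir106b and Mir93. They were at 101, 16.4 and 11.4 FPKM in the cKO library and each at 0 FPKM in the control library.

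Mcm2 to Mcm7 encode the 6 subunits of the helicase that opens DNA at replication forks. Their summed level was 54.9 FPKM in the cKO library and 55.7 FPKM in the control library, 3 of the 6 were above 0 and 3 below with the deposited FPKM, and all 6 pairs of intervals overlapped. Mcm2 was at 6.22 FPKM in the cKO library and 5.92 FPKM in the control library. Mcm3 was at 9.07 and 7.93 FPKM, and Mcm4 at 9.32 and 8.37 FPKM. Mcm5 was at 5.93 FPKM in the cKO library and 6.85 FPKM in the control library, and Mcm6 at 11.0 and 12.1 FPKM. The subunits thus ran from -0.18 for Mcm5 to 0.17 for Mcm3, within what their intervals span.

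The factors that load and start this helicase were scarce. Cdt1, a loader of MCM, was at 1.93 FPKM (1.59 to 2.07) in the cKO library and 2.50 FPKM (1.95 to 2.93) in the control library, a log2 difference of -0.26. Cdc6, the other loader, was at 0.956 FPKM in the cKO library and 0.959 FPKM in the control library. Cdc45, which joins the helicase when it is activated, was at 3.45 FPKM (3.11 to 3.79) in the cKO library and 2.82 FPKM (2.31 to 3.33) in the control library, the highest difference among S phase genes at 0.22. The intervals overlapped for Cdt1, Cdc6 and Cdc45. Among the enzymes of nucleotide supply, Rrm2, the small subunit of ribonucleotide reductase, had the lowest difference of the phase. It was at 8.91 FPKM (7.74 to 8.87) in the cKO library and 11.2 FPKM (9.49 to 11.6) in the control library, a log2 difference of -0.30 with separate intervals. Its large subunit Rrm1 had a difference of 0.15 with overlapping intervals, and of -0.16 after scaling to the same sum. Tyms, thymidylate synthase, was at 7.17 FPKM in the cKO library and 6.59 FPKM in the control library, and an entry for its pseudogene, Tyms-ps, was at 1.82 and 1.78 FPKM.

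The G2/M genes lay slightly below 0, with 15 of 20 differences below 0 (75.0%, against 38.6% of all genes) and 17 of 20 below the median of all genes. They stayed within -0.39 to 0.43, none reached 1.5-fold, and intervals overlapped for 14 of the 20. Intervals were separate for 5 of the 20 that were lower, a share near the 22.5% of all genes, and for 1 that was higher, against 38.4% of all genes. Their summed level was 121 FPKM in the cKO library and 128 FPKM in the control library, a ratio of 0.941. The S phase genes summed to 162 and 171 FPKM, a ratio of 0.947. Pcna held 69.8 and 78.0 FPKM of those S phase sums.

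Mki67, whose protein Ki-67 coats mitotic chromosomes and marks cycling cells, had the lowest difference of the 42 genes. It was at 6.63 FPKM (6.36 to 6.85) in the cKO library and 8.996 FPKM (8.52 to 9.41) in the control library, a ratio of 0.737 and a log2 difference of -0.39 with separate intervals. Top2a, the topoisomerase that untangles sister chromatids, was at 11.6 FPKM (10.9 to 11.7) in the cKO library and 13.1 FPKM (12.1 to 13.7) in the control library, a log2 difference of -0.17 with separate intervals. Both of these proliferation markers were thus lower in the cKO library by less than 1.5-fold.

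The mitotic cyclins and their kinase did not share a direction. Ccnb2, a B-type cyclin, had the highest difference of the phase, at 7.75 FPKM (6.36 to 7.81) in the cKO library and 5.50 FPKM (4.23 to 6.23) in the control library, a log2 difference of 0.43 with intervals just separate. Ccnb1, the main mitotic cyclin, was at 6.72 FPKM (5.85 to 6.80) in the cKO library and 7.06 FPKM (5.93 to 7.54) in the control library. Cdk1, the kinase that both B-type cyclins activate, was at 6.55 FPKM (5.83 to 6.68) in the cKO library and 6.23 FPKM (5.34 to 6.76) in the control library. For Ccnb1 and Cdk1 the intervals overlap, and the wider control interval covers most or all of the cKO interval. Ccna2, the cyclin of S phase and G2, was at 9.39 FPKM in the cKO library and 10.2 FPKM in the control library, also with overlapping intervals, and 863 bases of its locus are shared with Exosc9, at 12.4 and 14.6 FPKM.

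The chromosomal passenger complex and the Aurora kinases were lower in value. Birc5, or survivin, was at 9.96 FPKM (9.15 to 10.8) in the cKO library and 12.5 FPKM (10.9 to 14.1) in the control library, a log2 difference of -0.30 with intervals that barely separate. Aurkb, the kinase of that complex, was at 3.97 FPKM (3.33 to 4.07) in the cKO library and 4.999 FPKM (4.02 to 5.83) in the control library, a log2 difference of -0.27 with overlapping intervals. Aurka, the Aurora kinase of spindle poles, was at 3.44 and 4.15 FPKM, and Tpx2, which activates it, at 5.74 and 6.31 FPKM. Plk1, the polo-like kinase of mitotic entry, was at 4.01 FPKM in the cKO library and 4.40 FPKM in the control library. Intervals overlapped for Aurka, Tpx2 and Plk1.

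Genes of the kinetochore, the checkpoint and the spindle spanned a narrow range. Cenpe, the kinetochore kinesin that carries chromosomes to the spindle equator, was at 1.49 FPKM (1.38 to 1.60) in the cKO library and 2.07 FPKM (1.85 to 2.28) in the control library, a log2 difference of -0.30 with separate intervals. Nusap1, a protein that bundles spindle microtubules, was at 4.46 FPKM (4.14 to 4.79) in the cKO library and 5.49 FPKM (4.91 to 6.07) in the control library, a log2 difference of -0.25 with separate intervals. Cenpf, another kinetochore protein, was nearly level at 2.17 FPKM in the cKO library and 2.21 FPKM in the control library. The checkpoint kinase Bub1 was at 1.38 and 1.67 FPKM, and Bub1b, which encodes the checkpoint protein BubR1, at 3.45 and 3.84 FPKM. The mitotic motor Kif11 was at 3.62 FPKM in the cKO library and 4.17 FPKM in the control library, and Kif23, a kinesin of cytokinesis, at 3.20 and 2.98 FPKM. Intervals overlapped for Cenpf, Bub1, Bub1b, Kif11 and Kif23.

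The genes for ending mitosis lay near the median of all genes. Cdc20, the activator of the anaphase-promoting complex, was at 10.7 FPKM (10.0 to 11.4) in the cKO library and 9.31 FPKM (8.32 to 10.3) in the control library, a log2 difference of 0.18. Ube2c, the ubiquitin-conjugating enzyme of that complex, was at 14.6 FPKM (10.8 to 12.9) in the cKO library and 13.2 FPKM (9.30 to 12.9) in the control library, a log2 difference of 0.13. The intervals overlapped for both, and both FPKM values of Ube2c lie above their intervals. After scaling to the same sum the differences were -0.12 for Cdc20 and -0.18 for Ube2c. Ends of the Cdc20 and Nusap1 loci overlap Elovl1 and Oip5 by 52 and 208 bases. Elovl1 was at 54.3 FPKM in the cKO library and 104 FPKM in the control library, above Cdc20 in both. Oip5 was at 1.44 and 1.37 FPKM.

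**Figure D2:**
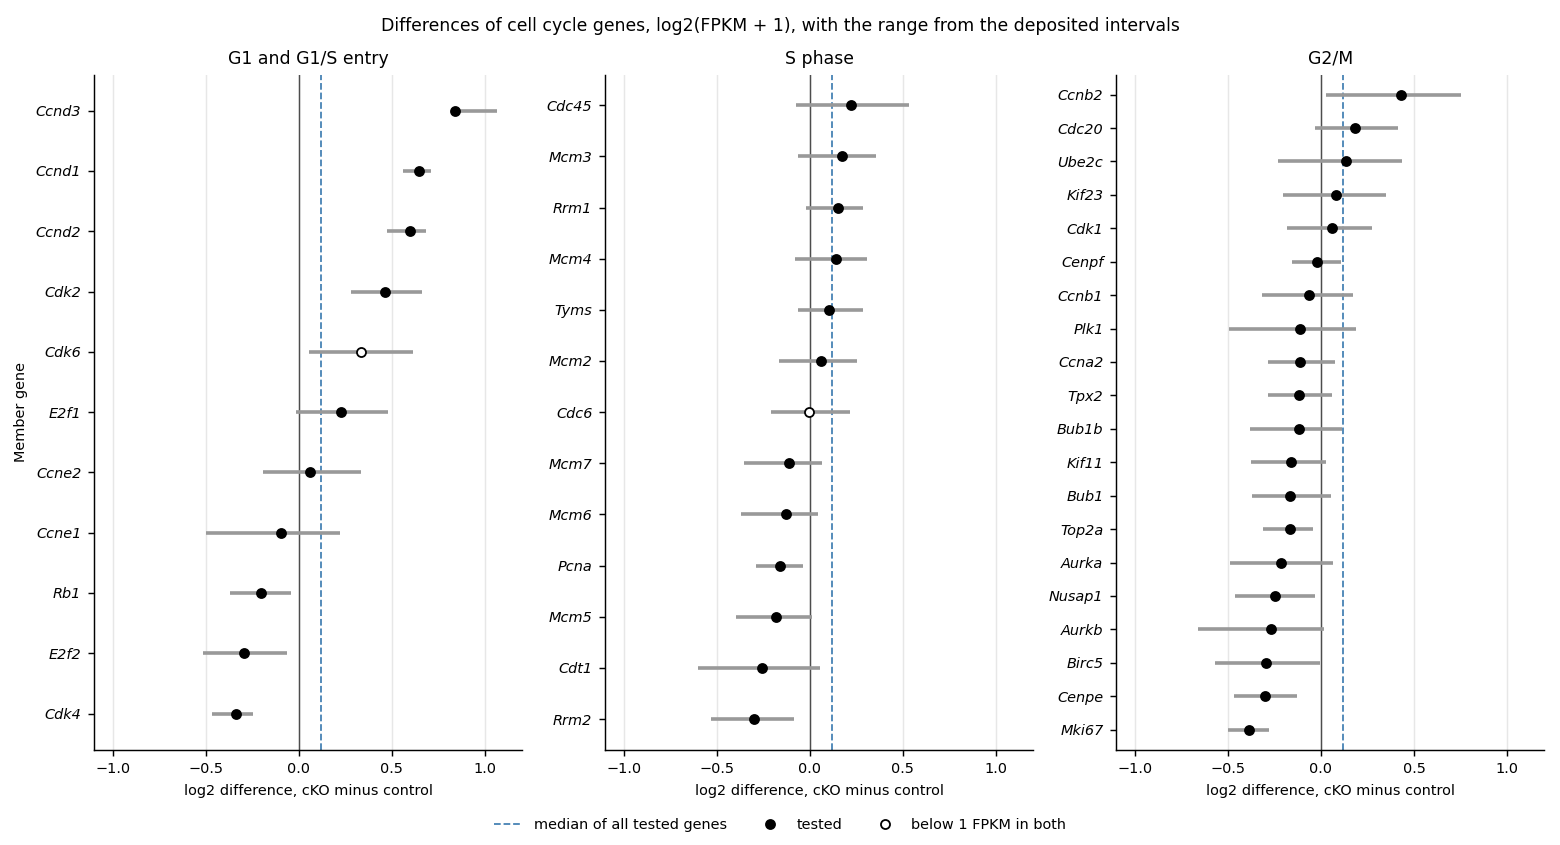
Log2 difference (cKO minus control, of FPKM + 1) of each of the 44 genes by phase; grey bars run between the differences given by opposite interval bounds, and the dashed line is the median of all genes compared, 0.12. Ccnd3, Ccnd1, Ccnd2 and Cdk2 lie right of the line with their whole bars, and 17 of 20 G2/M points lie left of it.

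Ratios within a library do not depend on how the libraries are scaled to each other. The summed FPKM of D-type cyclins was 2.20 times that of Cdk4 in the cKO library and 1.05 times in the control library. It was 1.52 times the summed G2/M genes in the cKO library and 0.866 times in the control library, and 1.14 times the summed S phase genes in the cKO library and 0.651 times in the control library. The ratio of S phase to G2/M genes, by contrast, was 1.34 in the cKO library and 1.33 in the control library. D-type cyclin RNA was thus higher in the cKO library relative to the other phases. The S phase and G2/M sums kept nearly the same proportion to each other, but Pcna weighs heavily in the S phase sum. Pcna held 69.8 of 162 FPKM in the cKO library and 78.0 of 171 FPKM in the control library, both above their intervals. The list medians differed, at -0.02 for S phase and -0.12 for G2/M genes.

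Between libraries, the scaling sets how far the D-type cyclins stand above 0. Scaling to the same upper quartile gave 0.76 for Ccnd3, 0.57 for Ccnd1 and 0.52 for Ccnd2. Scaling to the same sum gave 0.51, 0.32 and 0.28, and none of the 3 then reached 1.5-fold. Under that scaling 4 members were lower at 1.5-fold, Cdk4 (-0.67), Mki67 (-0.69), Rrm2 (-0.61) and Birc5 (-0.60), against 16.6% of all genes. None of these 4 was lower at 1.5-fold once small RNA symbols were left out of the sum, a setting chosen after seeing the data. Cdk4 was then at -0.43, Mki67 at -0.47 and Ccnd3 at 0.75. Over 13 other settings, Ccnd1, Ccnd2, Ccnd3, Cdk2 and Ccnb2 kept differences above 0 wherever they were measured. Another 25 members, Cdk4 and Mki67 among them, kept differences below 0, and 12 changed sign.

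**Figure D3:**
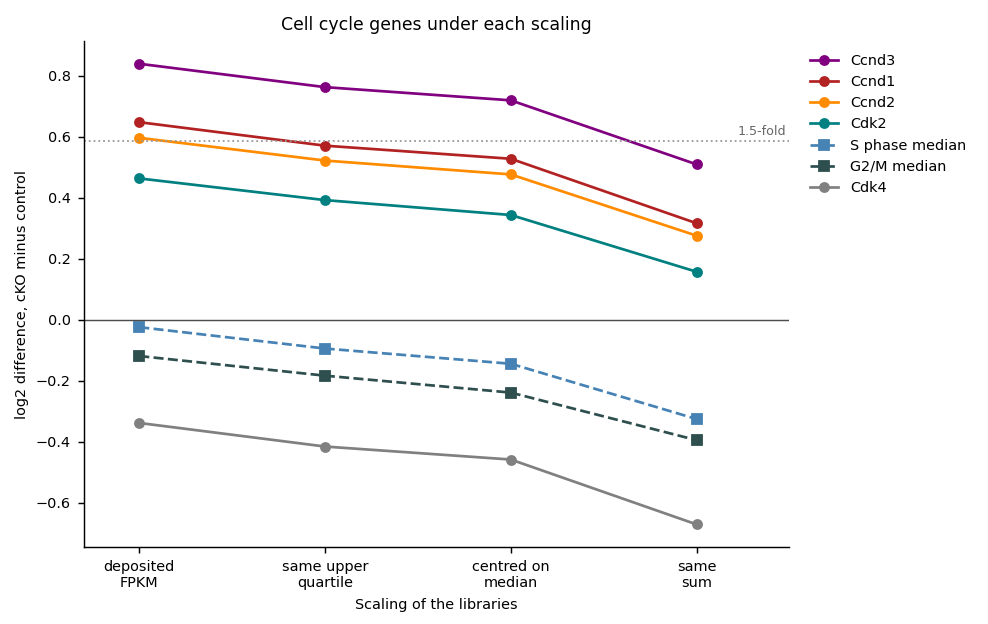
Log2 difference (cKO minus control) of the 3 D-type cyclins, Cdk2 and Cdk4, and the medians of S phase and G2/M genes, with the deposited FPKM and under 3 scalings; the dotted line marks 1.5-fold. Only Ccnd3 stays above the line with the same upper quartile or centred on the median, none does with the same sum, and the order of the lines is the same throughout.

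Few other genes of the cell cycle passed 1.5-fold by the difference used here. That difference adds 1 FPKM to each value. A gene at a low level can thus exceed 1.5-fold in its plain ratio without being counted. Of 122 further genes in 5 lists, 119 were compared, 0 were lower at 1.5-fold (against 8.85% of all genes) and 3 were higher (2.52%, against 16.0% of all genes). With the deposited FPKM their median was -0.04, and 78 lay within 0.25 on the log2 scale (65.5%, against 42.3% of all genes). That share was not counted again under other scalings. Among 43 other genes of DNA replication, of which 42 were compared, 0 were past 1.5-fold, and the median was -0.05 with quartiles of -0.23 and 0.12. The most abundant were Rpa1, a single-strand binding subunit, at 19.8 FPKM in the cKO library and 18.7 FPKM in the control library, and Rfc2, a clamp loader subunit, at 17.8 and 19.8 FPKM. The largest differences were those of Cdc7, the kinase that fires origins, at 2.78 and 4.65 FPKM (log2 -0.58), and the flap nuclease Fen1, at 4.30 and 6.76 FPKM (-0.55). Their plain ratios, 0.598 for Cdc7 and 0.637 for Fen1, are past 1.5-fold.

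Among 52 other genes of mitosis, 1 was higher at 1.5-fold (1.92%, against 16.0% of all genes) and 0 were lower, with a median of -0.13, close to that of the 20 G2/M genes. The gene past the mark was Cdc25b, a phosphatase that activates CDK1, at 10.6 FPKM in the cKO library and 6.40 FPKM in the control library (log2 0.64). Wee1, the kinase that opposes it, was at 5.11 and 3.29 FPKM (0.51), so both of these opposing regulators were higher in value. Anln, anillin of the cleavage furrow, also found in myelin, was at 3.68 and 5.53 FPKM (-0.48). The plain ratios of Wee1 (1.55) and Anln (0.665) are past 1.5-fold, although neither gene was counted. The most abundant were Bub3, at 30.3 and 33.6 FPKM, and securin Pttg1, at 27.1 and 25.1 FPKM.

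Of 12 other regulators of the G1/S step, Cks1b, a CDK-binding subunit, was higher at 1.5-fold, at 17.8 FPKM in the cKO library and 11.5 FPKM in the control library (log2 0.59). It was 8.33% of the list, against 16.0% of all genes. The list's median was -0.00. Tfdp1, the dimer partner of E2F, was at 25.1 and 35.8 FPKM (-0.49), and the activator E2f3 at 4.93 and 7.85 FPKM (-0.58). Both had separate intervals and a difference short of the 1.5-fold mark, although the plain ratio of E2f3, 0.628, is past 1.5-fold. Of 8 late E2F repressors and DREAM subunits, 7 were compared and 0 were past 1.5-fold, with a median of 0.16. Of these, 3 lay within 0.25 (42.9%, near the 42.3% of all genes). E2f6 was at 8.66 and 5.69 FPKM (0.53), E2f8 at 1.04 and 1.91 FPKM (-0.51), Lin52 at 9.76 and 6.89 FPKM (0.45), Lin37 at 10.9 and 9.62 FPKM and Rbbp4 at 45.1 and 48.4 FPKM. The plain ratios of E2f6 (1.52) and E2f8 (0.546) are past 1.5-fold, although neither gene was counted. Of 7 CDK inhibitors, Cdkn1a, which encodes p21, was higher also at 2-fold (as were 4.73% of all genes), at 33.6 FPKM in the cKO library and 9.94 FPKM in the control library (log2 1.66). Cdkn1c was at 35.3 and 30.4 FPKM, Cdkn2c at 10.4 and 7.47 FPKM, and the median over the 6 compared was 0.13.

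**Figure D4:**
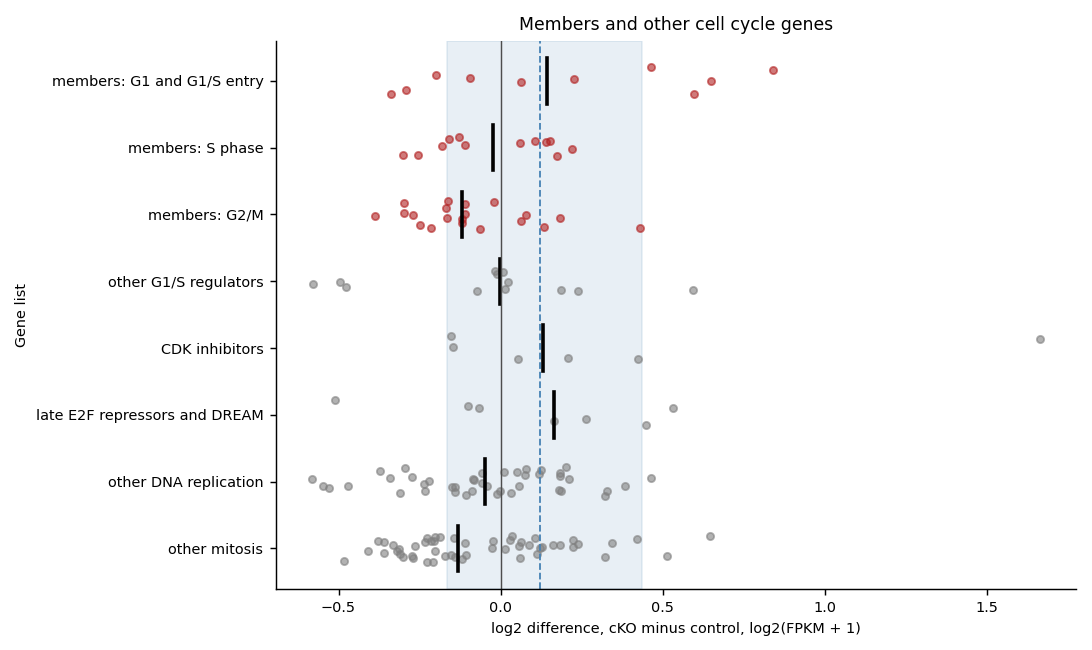
Log2 difference (cKO minus control, of FPKM + 1) of each gene compared, for the members by phase (red) and 5 lists of other cell cycle genes (grey); black bars are list medians, and the blue band and dashed line are the interquartile range and the median of all 14154 genes. The lists of replication and mitosis centre left of the dashed line, and Cdkn1a stands alone at 1.66.

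Marker RNA of the cell types that could hold these transcripts differed between the libraries. Beside the counts below, 4.51% of all genes were lower and 4.73% higher at 2-fold, and 8.85% lower and 16.0% higher at 1.5-fold. Markers of myelinating oligodendrocytes summed to 3620 FPKM in the cKO library and 27255 FPKM in the control library, with 8 of 8 lower at 2-fold, and those of newly formed oligodendrocytes to 171 and 810 FPKM, with 4 of 6 lower. Markers of oligodendrocyte precursors summed to 188 FPKM in the cKO library and 230 FPKM in the control library, with 3 of 8 lower at 2-fold, 4 of 8 lower at 1.5-fold and a median of -0.57. Intervals were separate for 5 of these 8 that were lower and for 2 that were higher. The 2 were Ptprz1, at 56.4 and 51.8 FPKM, and Pdgfra, at 38.8 and 35.4 FPKM. Matn4 was level, at 48.8 and 48.9 FPKM, and Ptprz1, Matn4 and Pdgfra had the highest mean levels of the list. Astrocyte markers summed to 1918 FPKM in the cKO library and 1115 FPKM in the control library, with 3 of 10 higher at 2-fold and 6 of 10 at 1.5-fold. At 1.5-fold, 5 of 10 microglia markers were higher (559 FPKM summed in the cKO library and 376 FPKM in the control library), 1 of 8 endothelial markers (12.5%, below the share of all genes; 187 and 150 FPKM), 5 of 7 mural cell markers (481 and 263 FPKM) and 6 of 6 meningeal fibroblast markers (4045 and 1726 FPKM). Schwann cell markers summed to 11.9 and 10.5 FPKM with 1 of 3 compared higher, neuron markers to 53.8 and 37.1 FPKM with 2 of 6 higher and 1 lower, and red blood cell markers to 265 and 85.3 FPKM with 2 of 3 higher. No marker of these lists was at 0 in either library. The part of these cell types in the D-type cyclin, S phase and G2/M values was not tested.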

How the data were processed

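The authors deposited FPKM per gene with interval bounds and a status for each library, per the file headers. CASAVA, TopHat, Cufflinks and the mm9 build are named in the submitters' processing notes; versions, options, annotation, depth and the confidence level of the intervals are not stated there or in the labels. Per the labels' protocols, Trizol was used for extraction and a TruSeq RNA kit for the libraries. Entries were matched between libraries by symbol, start site group and locus, and the entry with the highest summed FPKM represented a symbol. Locus starts count from 0 (10444 locus widths equal RefSeq gene lengths on that reading, against 614 otherwise), so 1 was added. Log2 differences used a pseudocount of 1 FPKM and deposited values without further scaling (Python 3.11.15, pandas 2.3.3, numpy 2.4.6). Other pseudocounts, scalings and minimum levels were tried. The named genes were all members, and from each further list the 2 most abundant and the 3 with the largest differences; a DNA replication gene that this rule names is not reported here. The members, phases, gene lists and the 1.5-fold mark were chosen with earlier results of these data known. Promoter sequences come from RefSeq.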

Additional observations from a re-analysis of the deposited data

How the results depend on the processing

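No paired analysis was possible because each group has 1 library, and for the same reason no replicate could be left out. Counts at 2-fold were 0 in both directions in every setting tried. The count of 3 members higher at 1.5-fold became 1 (Ccnd3) after scaling to the same upper quartile or centring on the median of all genes, and 0 after scaling to the same sum, where the count lower became 4. Of all genes, 13.5%, 11.8% and 7.35% were higher in these settings, and 16.6% were lower with the same sum. The count of members higher was 2, without Ccnd2, with a pseudocount of 5 FPKM or with interval midpoints (8.58% and 15.1% of all genes). It was also 1 after scaling to the same sum without small RNA symbols, where the count lower was 0 (13.2% and 10.3% of all genes). It was 0 when members outside their own intervals were left out, which removes all 3 D-type cyclins. These last alternatives, the use of interval midpoints and the G1 median without D-type cyclins were chosen after seeing the data. The S phase median became -0.33 and the G2/M median -0.40 after scaling to the same sum. The G1 median became 0.53 with a minimum of 5 FPKM, which leaves fewer G1 genes, and it changed sign after scaling to the same sum (-0.07) and when members outside their own intervals were left out (-0.02). The S phase median changed sign in that last setting (0.10). Of 42 members, 12 changed sign in at least 1 setting, and 5 did so without the scaling to the same sum. The G1 median was 0.20 with a pseudocount of 0.1 FPKM and 0.07 with 5 FPKM, and the G2/M median was -0.14 and -0.07. Depth is unknown, and the deposited intervals hold no variation between animals.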
